A study of Mus musculus with 12 samples.

Results

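Procollagen is folded, hydroxylated, exported and trimmed before it can assemble into fibrils, and 10 genes for those steps were followed in mouse fetal membranes. They are Serpinh1, P4ha1, P4ha2 and P4ha3, which act in the endoplasmic reticulum, and Adamts2, Adamts3, Adamts14, Bmp1, Pcolce and Pcolce2, which act on the propeptides. The genes were chosen by symbol from their known roles, and each matched 1 of the 48795 gene rows of the count table. Of these, 9 passed the filter on low counts, together with 18153 of all genes, and Pcolce2 did not. RNA was sequenced from fetal membranes in 12 libraries, 3 for each of 4 groups: wild type (WT) and double knockout (DKO) at embryonic day 12 (E12) and at embryonic day 18 (E18). The DKO groups lacked both biglycan (Bgn) and decorin (Dcn), proteoglycans of the small leucine-rich family, and carried the strain label C3H and C57BL/6, whereas the WT groups carried the label C3H. Strain and genotype therefore cannot be told apart. The labels do not say that the 3 libraries of a group came from separate animals or litters, so p-values measure only the spread between these samples, which may be technical.

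As background, prolyl 4-hydroxylase is a tetramer in which an alpha subunit, made from P4ha1, P4ha2 or P4ha3, carries the catalytic site, and its product, 4-hydroxyproline, keeps the collagen triple helix stable at body temperature. Serpinh1 encodes HSP47, a collagen-specific chaperone that binds the folded triple helix in the endoplasmic reticulum. Outside the cell the N-propeptides of procollagens I, II and III are removed by the metalloproteinases ADAMTS2, ADAMTS3 and ADAMTS14, and the C-propeptides by BMP1 and the related tolloid proteinases. PCPE-1 and PCPE-2, the products of Pcolce and Pcolce2, bind the C-propeptide and speed its removal. Fetal membranes owe their tensile strength largely to fibrillar collagen, and biglycan and decorin take part in the assembly of those fibrils.

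Total gene counts lay between 19967593 and 33065424 per library. The knockout genes followed the labels: Bgn was at 14.3 to 25.1 CPM (gene counts scaled by library size and TMM factor) in the 6 DKO libraries against 223 to 686 CPM in the 6 WT libraries, and Dcn at 4.67 to 8.44 against 198 to 978 CPM. The stage labels were checked with the globins, which switch from embryonic to adult forms during gestation. Transcripts of the embryonic beta-globin genes Hbb-y and Hbb-bh1 made up 82.3 to 85.1% of the beta-globin counts in E12 DKO and 1.33 to 2.67% in E18 DKO, but 74.8 to 87.8% in the libraries labelled E18 WT, which is the early pattern. E12 WT library 1 was at 14.8%, against 95.1 and 97.1% in the other two. The libraries in question are called labelled E18 WT below. Stage and genotype cannot be told apart in the comparison of E18 DKO with them. Labelled E18 WT library 3 held 71.4 CPM of Prl8a2, a decidual prolactin-family gene (at most 2.12 CPM elsewhere), and in E12 WT library 3 mitochondrial transcripts made up 21.2% of counts (3.58 to 7.78% elsewhere). For the tissue label, the summed level of 8 visceral yolk sac endoderm genes was 51351 to 155884 CPM. None of the 8 epithelial or 8 stromal fibroblast markers was at 0 in every library of any group. That was so for every marker list, so it cannot tell tissues apart. The summed level of 8 chondrocyte markers was 183 to 1256 CPM in E12 WT and 650 to 1068 CPM in E12 DKO. It was 640 to 1232 CPM in labelled E18 WT and 32.1 to 44.2 CPM in E18 DKO. The source of these transcripts was not tested.

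Between the E12 and E18 DKO libraries the N-proteinase genes had the largest fold changes of the 9 tested genes, Adamts2 and Adamts14 higher and Adamts3 lower at E18, so the 250 bases before their RefSeq starts (GRCm38.p6) are shown for comparison. They are printed 5′ to 3′ on the strand of the gene, with matches to GGGCGG (the GC-box core) or ACGTG (the hypoxia-response core) on either strand in capitals. The windows lie at chr11:50601835-50602084 (plus strand) for Adamts2, chr10:61273420-61273669 (minus strand) for Adamts14 and chr5:89883335-89883584 (minus strand) for Adamts3.
Adamts2: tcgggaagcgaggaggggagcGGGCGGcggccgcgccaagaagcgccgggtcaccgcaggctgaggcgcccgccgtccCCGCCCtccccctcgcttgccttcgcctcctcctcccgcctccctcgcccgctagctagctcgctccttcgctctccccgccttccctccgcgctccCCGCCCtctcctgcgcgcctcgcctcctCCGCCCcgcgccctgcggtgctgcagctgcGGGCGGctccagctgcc
Adamts14: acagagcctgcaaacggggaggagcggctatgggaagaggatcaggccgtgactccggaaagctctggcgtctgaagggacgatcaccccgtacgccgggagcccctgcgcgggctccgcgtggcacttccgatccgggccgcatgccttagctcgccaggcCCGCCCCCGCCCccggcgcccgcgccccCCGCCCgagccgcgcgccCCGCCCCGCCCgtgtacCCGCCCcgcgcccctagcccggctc
Adamts3: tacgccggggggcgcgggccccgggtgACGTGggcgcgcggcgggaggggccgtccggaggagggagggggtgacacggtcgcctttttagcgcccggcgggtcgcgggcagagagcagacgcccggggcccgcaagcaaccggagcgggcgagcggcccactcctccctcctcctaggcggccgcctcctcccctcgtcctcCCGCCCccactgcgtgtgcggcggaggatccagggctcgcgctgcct
Adamts2 held 5 matches to GGGCGG, Adamts14 held 6, some of them overlapping within runs of cytosine-rich sequence, and Adamts3 held 1, while 32.7% of 32851 mouse promoter windows of the same length held at least 1. ACGTG was matched once in Adamts3 and in neither of the other two, against 16.6% of all windows. All 9 genes found in the promoter table (Bmp1 was not) held GGGCGG, from 1 match in Serpinh1, P4ha1, Pcolce and Pcolce2 through 2 in P4ha2 to 5 in P4ha3. ACGTG was also matched once each in Serpinh1, P4ha1 and P4ha2. The CCAAT box was matched in none of the 9, against 33.8% of all windows. The same held for TATAAA, the TATA box (12.4% of all windows), and for a pair of heat-shock element units, GAANNTTC (6.69%). The 9 windows were 58.8 to 78.0% G or C, and the shares over all windows were not matched for that content. A match is a run of letters, not a site shown to be bound.

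Serpinh1 had the highest level per kilobase of the 10 genes in every group, with group means of 421 to 597 CPM per kb, above the next gene without overlap. In the 3 groups other than E18 DKO, Pcolce came next (28.1 to 58.5 CPM per kb) and then P4ha1, and the values of the pair overlapped in each group. In E18 DKO, Bmp1 came next, at 29.9 ± 4.06 CPM per kb (SD, n = 3), followed by P4ha1 at 26.9 ± 5.37, and those neighbours overlapped too. Adamts14 and Adamts3 held the lowest places apart from Pcolce2 in the 3 groups other than E18 DKO. In E18 DKO, Adamts14 (6.47 ± 0.987 CPM per kb) stood above P4ha3 (4.35 ± 1.88), but their values overlapped.

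**Figure D1:**
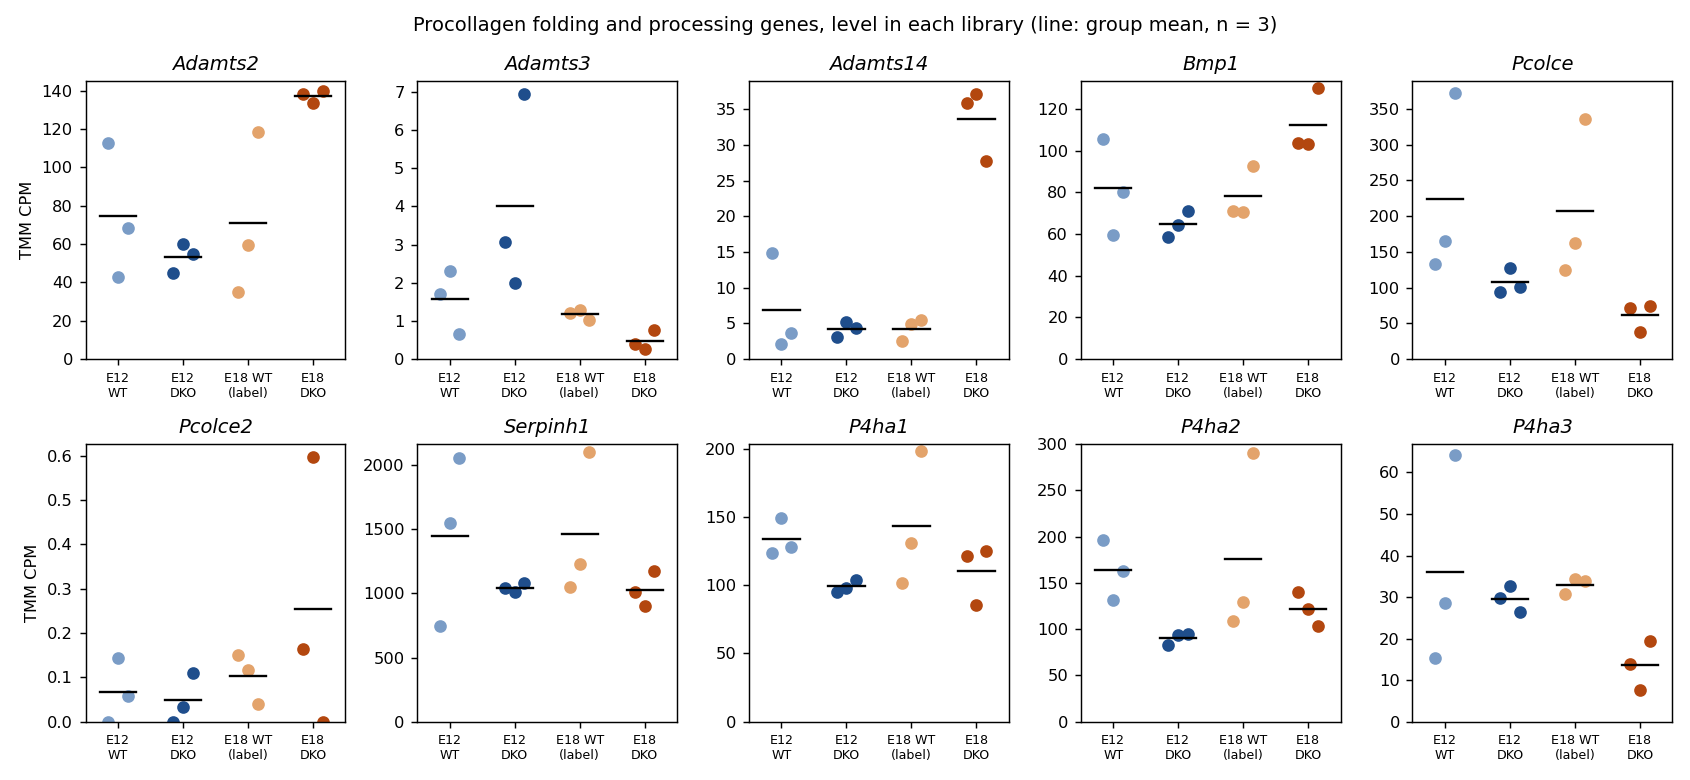
Level of each of the 10 genes in every library (y axis, TMM-scaled CPM on a linear axis that starts at 0; x axis, group as labelled); points are libraries and lines are group means of 3. The 3 E18 DKO libraries stand above all others for Adamts14 (27.7 to 37.2 CPM) and Adamts2 (134 to 140 CPM), and lie below the labelled E18 WT libraries for Pcolce and P4ha3.

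Among the 4 endoplasmic reticulum genes, P4ha3 alone passed the test between DKO and WT at E18 as labelled, and none passed it at E12. For Serpinh1 the libraries read 1046, 1012 and 1077 CPM in E12 DKO, 747, 1549 and 2054 in E12 WT, 1009, 900 and 1178 in E18 DKO, and 1053, 1227 and 2098 in labelled E18 WT. The DKO values lay close together, and both WT groups spread more widely and overlapped them. The log2 difference of DKO from WT was -0.47 ± 0.35 (SE) at E12 (edgeR quasi-likelihood test, adjusted p = 0.428) and -0.50 ± 0.35 at E18 as labelled (adjusted p = 0.271). The 95% interval of the E18 difference ran from -1.28 to 0.27.

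P4ha1, which encodes the main alpha subunit of most tissues, read 95.3, 98.3 and 104 CPM in E12 DKO and 124, 149 and 128 CPM in E12 WT. The E12 groups did not overlap, but the log2 difference of -0.43 ± 0.24 missed the threshold (edgeR, adjusted p = 0.28). At E18 the DKO libraries read 122, 85.2 and 125 CPM and the labelled WT libraries 101, 131 and 198 CPM, which overlapped. P4ha2, the second alpha subunit, read 82.6, 93.9 and 94.5 CPM in E12 DKO, while the E12 WT libraries held 196, 132 and 163 CPM. Again every E12 DKO value lay below every WT value, and the log2 difference was -0.86 ± 0.32 (edgeR, adjusted p = 0.144). At E18, P4ha2 stood at 140, 122 and 104 CPM in DKO and 109, 130 and 290 CPM in labelled WT. The single value of 290 CPM belonged to library 3, the one with the decidual transcripts. With that library the log2 difference was -0.53 ± 0.32 (edgeR, adjusted p = 0.2), and without it 0.03 (adjusted p = 0.932).

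P4ha3, the least abundant alpha subunit, read 14.0, 7.59 and 19.4 CPM in E18 DKO and 30.7, 34.3 and 33.8 CPM in labelled E18 WT. All 3 E18 DKO libraries were lower than all 3 labelled WT libraries, and P4ha3 fell 2.42-fold (log2 -1.27 ± 0.45, edgeR, adjusted p = 0.04). The call did not hold in 9 of 12 fits that each left out 1 library, with adjusted p up to 0.123 and a smallest change of -0.98, without E18 DKO library 2. At E12 the DKO libraries read 29.8, 32.6 and 26.5 CPM and the WT libraries 15.3, 28.6 and 64.1 CPM. The E12 WT values spanned those of DKO on both sides, with the highest in library 3, where mitochondrial transcripts were also highest. Among DKO libraries P4ha3 was lower at E18 than at E12 without overlap, but missed the threshold (log2 -1.12 ± 0.45, edgeR, adjusted p = 0.0598). It passed in 10 of 21 alternatives, among them DESeq2 (adjusted p = 0.0347) and limma voom (adjusted p = 0.0448).

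The N-proteinase genes moved apart. Adamts14 rose in E18 DKO, where its libraries read 35.9, 37.2 and 27.7 CPM, against 2.49, 4.86 and 5.46 CPM in labelled E18 WT. The lowest DKO value lay far above the highest labelled WT value. The difference was 7.86-fold (log2 2.97 ± 0.62, edgeR, adjusted p = 0.0032). At E12, DKO libraries held 3.12, 5.12 and 4.29 CPM and WT libraries 14.9, 2.14 and 3.65 CPM. The 14.9 CPM was that of E12 WT library 1, the library with a low embryonic share of beta-globin counts (14.8%). The other 2 WT libraries lay near DKO. With all libraries the E12 log2 difference was -0.72 ± 0.58 (edgeR, adjusted p = 0.465), and without E12 WT library 1 it was 0.55 (adjusted p = 0.312). The 2 genotype effects on Adamts14 differed by 3.70 ± 0.84 on the log2 scale (edgeR interaction term, adjusted p = 0.00557), or by 2.43 without that library.

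Adamts2, the main N-proteinase of skin and tendon, stood high in E18 DKO, at 138, 134 and 140 CPM, beside labelled E18 WT libraries of 35.1, 59.7 and 119 CPM. The groups did not overlap, although WT library 3 came close to DKO. The log2 difference of 0.95 ± 0.41 missed the threshold (edgeR, adjusted p = 0.0832), and without labelled E18 WT library 3 it was 1.53 and passed it (adjusted p = 0.0109), as it did in 4 of 21 alternatives in all. In E12 DKO its level was 45.0, 59.9 and 54.7 CPM, and in E12 WT 113, 42.7 and 68.6 CPM, so that library 1 was again the highest of the E12 libraries. From E12 to E18 within DKO, Adamts2 rose 2.58-fold (log2 1.37 ± 0.41, edgeR, adjusted p = 0.0196). That call did not hold without E12 DKO library 1 (adjusted p = 0.0716) or library 3 (adjusted p = 0.0546).

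Adamts3, which also cleaves and so activates the lymphatic growth factor VEGF-C, was the scarcest of the 9 tested genes. Its counts were 7, 6 and 14 in E18 DKO and 32, 44 and 25 in labelled E18 WT, which came to 0.385, 0.256 and 0.763 CPM against 1.21, 1.29 and 1.03 CPM. The E18 groups did not overlap, and the log2 difference was -1.33 ± 0.61 (edgeR, adjusted p = 0.101). In E12 DKO the gene reached 3.06, 2.00 and 6.95 CPM, and in E12 WT 1.72, 2.32 and 0.647 CPM, with overlap. Within DKO, Adamts3 fell 8.58-fold from E12 to E18 (log2 -3.10 ± 0.63, edgeR, adjusted p = 0.00256). Its genotype effects at the 2 labelled stages, +1.34 at E12 and -1.33 at E18, differed by -2.68 ± 0.84 on the log2 scale (edgeR interaction term, adjusted p = 0.0249). The call did not hold in 4 of the 12 fits that left out 1 library. Without E12 DKO library 3, which held the 6.95 CPM, the difference was -2.02 (adjusted p = 0.0741), and without E18 DKO library 1, E18 DKO library 2 or labelled E18 WT library 2 it was -2.56, -2.37 or -2.61 (adjusted p = 0.059, 0.0561 or 0.0515).

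Because the 3 paralogs were compared within a library, their shares of the summed level per kilobase do not depend on scaling between libraries. Adamts14 made up 31.7, 33.3 and 26.1% of the N-proteinase transcripts in E18 DKO and 10.7, 12.4 and 7.53% in labelled E18 WT. The means were 30.3 ± 3.77 and 10.2 ± 2.46% (SD, n = 3), without overlap, against 11.0 ± 1.44% in E12 DKO and 11.7 ± 6.18% in E12 WT. Adamts2 remained the most abundant of the 3 in every library, at 66.5 to 73.2% in E18 DKO and 84.3 to 91.1% in labelled E18 WT. Adamts3 gave 0.219 to 0.687% in E18 DKO, 1.36 to 4.99% in labelled E18 WT and 4.74 to 16.1% in E12 DKO. For each of these 3 E18 differences the two-sided exact permutation p was 0.1, the smallest that 3 against 3 libraries allow, so the design cannot pass 0.05. Among the alpha subunits P4ha1 made up 40.0 to 57.2%, P4ha2 28.9 to 47.3% and P4ha3 5.67 to 26.3% over all 12 libraries. The P4ha3 share was 5.67 to 11.6% in E18 DKO and 10.2 to 18.8% in labelled E18 WT, which overlapped (exact permutation p = 0.2). In E12 DKO it was 17.3 to 21.1%, above E18 DKO without overlap (means 19.7 ± 2.08 and 8.39 ± 3.01%, SD, n = 3, exact permutation p = 0.1). Over the 45 comparisons of shares and of ratios to procollagen I, the lowest adjusted p was 0.161.

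**Figure D2:**
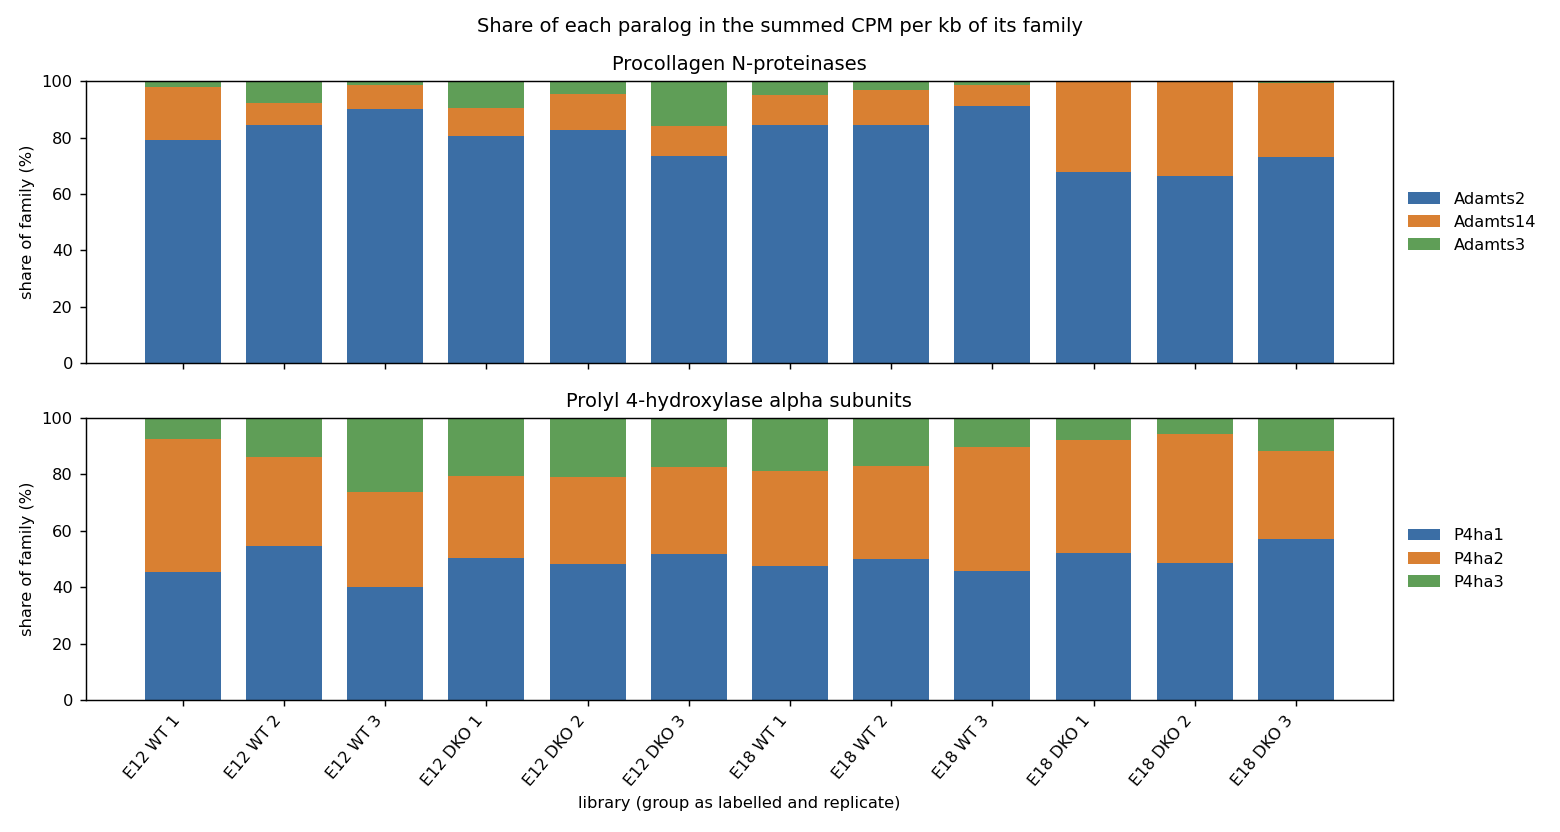
Share of each paralog in the summed CPM per kb of its family (y axis, percent, from 0 to 100) in each library (x axis); top, N-proteinases, bottom, prolyl 4-hydroxylase alpha subunits. The Adamts14 band is widest in the 3 E18 DKO libraries (26.1 to 33.3%), where the Adamts3 band is under 0.7%, and E12 WT library 1 comes next (18.8%).

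Bmp1, the main C-proteinase, also activates lysyl oxidase and trims other matrix proteins, and gene counts do not separate its short form from the longer mammalian tolloid. It read 104, 103 and 130 CPM in E18 DKO, 71.1, 70.6 and 92.5 in labelled E18 WT, 58.7, 64.6 and 71.0 in E12 DKO, and 106, 59.6 and 80.3 in E12 WT. The E18 DKO libraries were higher than those of labelled E18 WT and of E12 DKO without overlap, and E12 WT library 1 lay within their range. Bmp1 rose 1.73-fold from E12 to E18 within DKO (log2 0.79 ± 0.21, edgeR, adjusted p = 0.011), but between genotypes at E18 as labelled the difference of 0.53 ± 0.21 missed the threshold (adjusted p = 0.0667) and passed it in 6 of 21 alternatives. Scaled by total count alone, the stage difference was 0.44 and missed the threshold too (adjusted p = 0.0715). The genotype effects at the 2 stages differed by 0.86 ± 0.30 (edgeR interaction term, adjusted p = 0.0383). The call on that difference did not hold in 9 of the 12 fits that left out 1 library (adjusted p up to 0.0933), nor without the filter (adjusted p = 0.0653) or when libraries were scaled by total count alone (0.17, adjusted p = 0.613).

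Pcolce, the C-proteinase enhancer, fell in E18 DKO: its libraries read 70.8, 38.5 and 74.6 CPM there and 125, 163 and 335 CPM in labelled E18 WT. No E18 DKO library reached the lowest labelled WT value, and the difference was 3.39-fold (log2 -1.76 ± 0.46, edgeR, adjusted p = 0.0101). Without labelled E18 WT library 3 it was smaller and still passed (adjusted p = 0.0421). At E12, DKO libraries held 93.4, 128 and 101 CPM and WT libraries 132, 166 and 372 CPM. These groups did not overlap either, but the log2 difference of -1.06 ± 0.45 missed the threshold (edgeR, adjusted p = 0.181). The highest E12 WT value again belonged to library 3, with the high mitochondrial share. Exons of Fbxo24 on the same strand cover 2.93% of the Pcolce exon bases, and reads there could not be assigned to either gene alone. Pcolce2 was barely detected, with counts of 0, 1 and 4 in E12 DKO, 0, 4 and 1 in E12 WT, 3, 14 and 0 in E18 DKO, and 4, 4 and 1 in labelled E18 WT. It made up at most 1.27% of the summed enhancer level per kilobase in any library. A count of 0 allows up to 3 counts, or 0.0986 to 0.163 CPM in the 3 libraries at 0, a limit that covers counting error only.

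Counted over the 9 tested genes, none passed the test between DKO and WT at E12, against 0.353% of all tested genes (64 of 18153, edgeR). DESeq2 and limma voom also called none. In edgeR 3 of the 9 had an unadjusted p under 0.05, beside 4416 of the 18153 tested genes. Without E12 WT library 1, 3199 of all genes were called at E12 and still none of the 9. The E12 groups did not overlap for 3 of the 9 (Pcolce, P4ha1 and P4ha2, all lower in DKO), beside 30.1% of all tested genes. Without E12 WT library 1 and labelled E18 WT library 3 together, 3 genes were called lower at E12: Pcolce (-1.32), Serpinh1 (-0.78) and P4ha2 (-0.70). That fit called 3753 of all genes at E12, against 64 with all libraries. At E18 as labelled, 1 gene rose (Adamts14) and 2 fell (Pcolce and P4ha3), that is 3 of 9, while 42.3% of all tested genes were called (20.5% higher and 21.8% lower). Without those 2 libraries, or without E12 WT library 1 alone, Adamts2 and Bmp1 joined the genes called higher, for 5 in all. Calls over all genes grew as well in those fits, to 9159 and 9452, from 7678 in the main fit. Scaling by total count alone moved the median of all genes by -0.36 on the log2 scale and the share of calls that were higher from 48.5 to 28.4%. It gave 6 calls among the 9 genes, with Adamts14 higher and Pcolce, P4ha3, Adamts3, P4ha1 and P4ha2 lower. Over all genes that scaling gave 8397 calls. The groups did not overlap for 6 of the 9 genes (3 higher, 3 lower), beside 56.9% of all genes. The median log2 difference of the 9 genes was -0.50 at E18, against -0.04 over all tested genes.

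Between stages within DKO, Adamts2, Adamts14 and Bmp1 rose and Adamts3 fell, 4 of the 9, while 46% of all tested genes were called (23.2% higher and 22.8% lower). The DKO groups did not overlap for 7 of the 9, all but Serpinh1 and P4ha1, beside 67.2% of all genes. Scaled by total count alone, 32.1% of all calls between these groups were higher, against 50.3% with TMM factors. For the difference between the genotype effects, 3 of the 9 were called (Adamts14 and Bmp1 higher, Adamts3 lower), beside 41.9% of all genes (21.6% higher and 20.3% lower). Without labelled E18 WT library 3, Adamts2 (2.02) and P4ha2 (0.88) joined them, for 5 in all. That fit called 7444 of all genes, against 7600 with all libraries. Without E12 DKO library 3, E18 DKO library 1 or labelled E18 WT library 2, Adamts14 was the only one of the 9 called. Those fits called 6258, 6279 and 6241 of all genes. Scaled by total count alone, 25.4% of all calls on the difference were higher, against 51.6%. Both comparisons share the E18 DKO libraries with the E18 genotype comparison, and so are not separate evidence. Between the libraries labelled E18 WT and E12 WT no gene of the 9 was called by edgeR, DESeq2 or limma voom. Of all tested genes, edgeR called 0.953%. None of the 9 had an unadjusted p under 0.05 in edgeR, beside 3292 of the 18153 tested genes. Between E12 DKO and labelled E18 WT, which have like globin patterns, again none was called by any of the 3 tools. Of all genes, edgeR called 0.187%. In edgeR 3 of the 9 had an unadjusted p under 0.05, beside 1657 of the 18153 tested genes.

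**Figure D3:**
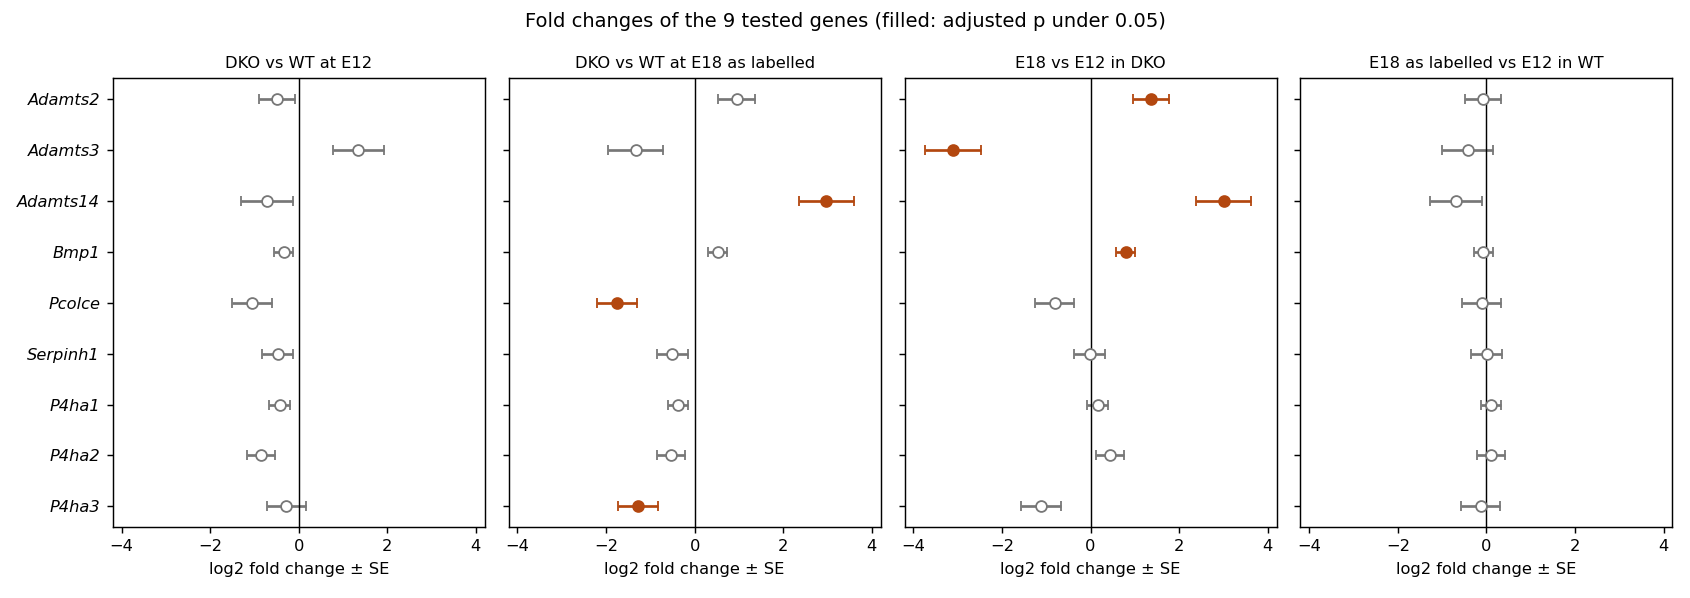
Log2 fold change (x axis, ± SE) of the 9 tested genes (y axis) in 4 comparisons from 1 edgeR fit of 12 libraries; filled orange points have an adjusted p under 0.05 and open grey points do not. No gene is filled at E12 or between the WT groups, 3 are filled between genotypes at E18 as labelled and 4 between stages in DKO.

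Among the substrates of these enzymes, most genes for fibrillar procollagens fell. Procollagen I transcripts (Col1a1 plus Col1a2) were at 291, 207 and 400 CPM per kb in E18 DKO, against 1207, 1385 and 2354 CPM per kb in the labelled E18 WT libraries. Of 11 genes for fibrillar procollagens, 8 were called lower at E18 as labelled and none higher, beside 21.8% and 20.5% of all tested genes. Their median log2 difference was -2.26, against -0.04 over all tested genes. Col1a1 (-2.54 ± 0.44, edgeR, adjusted p = 0.00129), Col1a2 (-2.26 ± 0.34), Col3a1 (-2.83 ± 0.44) and Col5a1 (-1.30 ± 0.22) all fell, while 3 of the 11 did not pass. Among markers of cartilage cells, 6 of the 7 tested chondrocyte genes were lower and 1 higher. The chondrocyte list holds Col11a2, itself a fibrillar procollagen gene, so the 2 lists are not separate evidence. The summed level of the chondrocyte markers was 32.1 to 44.2 CPM in E18 DKO against 640 to 1232 CPM in labelled E18 WT and 650 to 1068 CPM in E12 DKO. Of 6 tested trophoblast and decidua genes 2 were lower and none higher, with sums of 30.8 to 71.5 CPM in E18 DKO against 104 to 971 CPM. Of the 8 stromal fibroblast genes 3 were lower (Twist1, Twist2 and Prrx1) and 2 higher (Vim and Pdgfrb), named after their values were seen. Their sum was higher in E18 DKO, at 1718 to 2322 CPM against 873 to 1384 CPM in labelled E18 WT. Of the 8 epithelial genes 6 were higher and 1 lower (sums of 5610 to 7231 against 2225 to 2867 CPM), of the 8 endothelial genes 3 higher and 1 lower (553 to 573 against 239 to 406 CPM), and of the 8 macrophage genes 5 higher and 2 lower (908 to 1276 against 381 to 522 CPM). Of the 8 visceral yolk sac endoderm genes 2 were higher and none lower. None of these markers was at 0 in every library of a group, and their part in the changes of the 10 genes was not tested. In tissue RNA, fewer cells of a type and less RNA per cell cannot be told apart.

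Relative to procollagen I in the same library, all 9 genes were therefore higher in E18 DKO than in labelled E18 WT without overlap, but so were 80.3% of all tested genes, with a median ratio of 5.30. Serpinh1 kept nearly the same ratio in the 3 labelled E18 WT libraries, at 357, 363 and 365 per 1000 of procollagen I (all in CPM per kb), while E18 DKO stood at 1420, 1781 and 1206. Its mean ratio was 4.06 times higher in E18 DKO, those of P4ha1 and P4ha2 4.35 and 4.34 times, that of P4ha3 2.06 times and that of Pcolce 1.70 times. These ratios, and that of Adamts3 (1.89 times), lay below that of the median gene. The ratios of Bmp1 (7.92 times), Adamts2 (12.0 times) and Adamts14 (47.2 times) lay above it. Each of the 9 exact permutation tests gave p = 0.1, the smallest possible. At E12, Pcolce and P4ha2 were lower per procollagen I in DKO without overlap, 2 of 9, where 8.43% of all genes were.

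**Figure D4:**
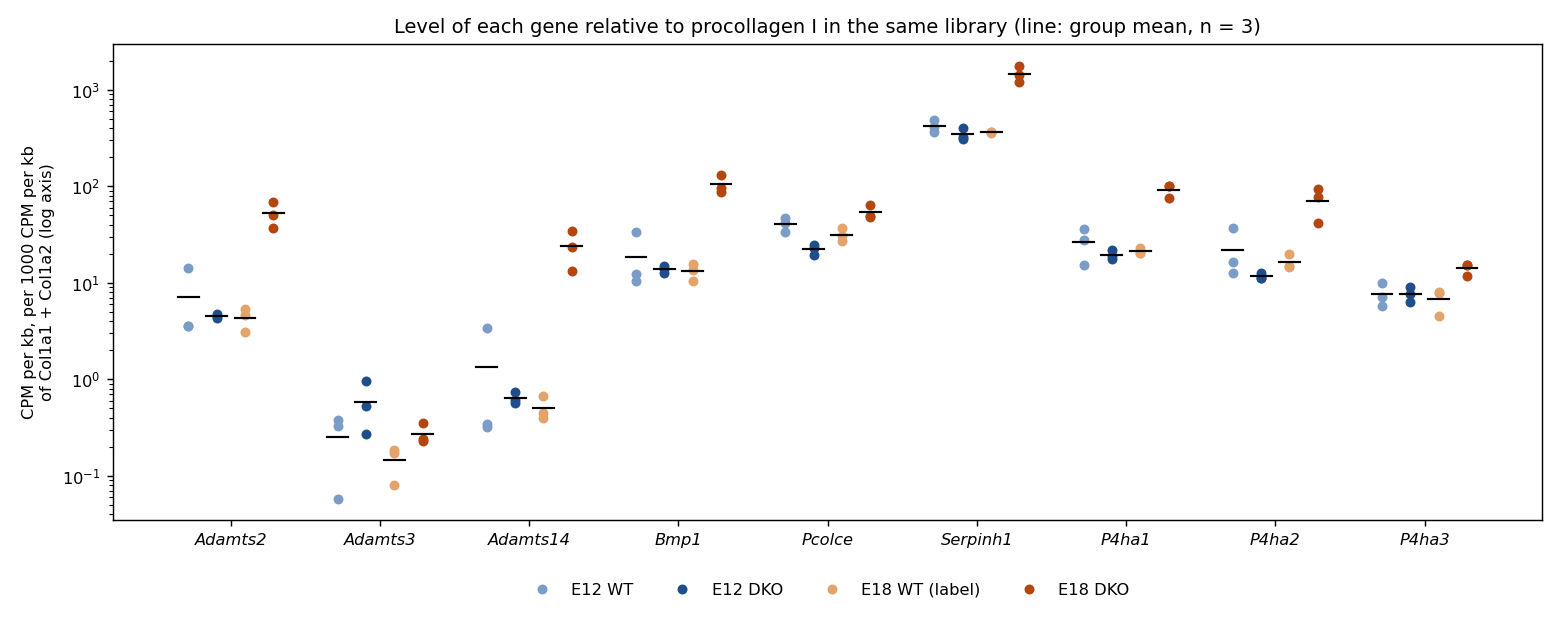
Level of each gene per 1000 CPM per kb of Col1a1 plus Col1a2 in the same library (y axis, log scale); points are libraries, coloured by group as labelled, and lines are group means of 3. The E18 DKO points lie above the labelled E18 WT points for all 9 genes, by 47.2 times in the mean for Adamts14 and 1.70 times for Pcolce.

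The other genes of the pathway were counted from lists set by known function. At E18 as labelled, 42.3% of all tested genes were called, 20.5% higher and 21.8% lower. Of 25 other chaperones and modifiers of procollagen in the endoplasmic reticulum, 9 were called lower and 1 higher at E18 as labelled, with a median log2 difference of -0.35 against -0.04 over all tested genes. The 4 most abundant, Sparc (0.44 ± 0.28), P4hb (-0.32 ± 0.20), Calr (-0.05 ± 0.21) and Pdia3 (-0.45 ± 0.24), did not pass, and P4hb encodes the beta subunit that joins each alpha subunit. Of 17 genes for export of procollagen to the Golgi, 5 were called lower and 2 higher (median -0.34), among the lower ones the coat protein genes Sec31a (-0.77 ± 0.20, edgeR, adjusted p = 0.0111) and Sec24c (-0.65 ± 0.21, adjusted p = 0.0293), the latter not in 4 of 21 alternatives. The adaptor gene Mia2 (-0.47 ± 0.20) and the GTPase gene Sar1a (-0.19 ± 0.14) did not pass. Scaled by total count alone, 12 of the 17 were called, beside 8397 of all genes. All genes were shifted by a median of -0.36 on the log2 scale.

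Among 10 tested genes for other tolloid or meprin proteinases and modulators of C-proteinase activity, 3 were lower and 2 higher at E18 as labelled (median -0.08). For this list and the next, the share over all tested genes was again 21.8% lower and 20.5% higher. Postn, which encodes periostin, a matricellular protein that binds BMP1, fell (-3.35 ± 0.63, edgeR, adjusted p = 0.00191), Thbs1 rose (1.53 ± 0.51, adjusted p = 0.0322), and Fn1 (0.37 ± 0.31) and Twsg1 (1.13 ± 0.43) did not pass. The Thbs1 call did not hold in 6 of 21 alternatives. Of 15 tested genes for other proteins cut by BMP1, 6 were higher and 5 lower (median 0.07). Lox, which encodes the cross-linking enzyme lysyl oxidase, rose (1.07 ± 0.28, edgeR, adjusted p = 0.00997), as did the growth factor carrier Igfbp3 (4.37 ± 0.33, adjusted p = 3.1e-05) and Hspg2 (0.54 ± 0.18), which encodes perlecan. Bgn, which the DKO lacks, is itself a BMP1 substrate and counts among the 5 lower. The Hspg2 call did not hold in 7 of 21 alternatives, with the smallest change when libraries were scaled by total count alone (0.18, adjusted p = 0.476).

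Of the 5 genes around the ADAMTS3 substrate VEGF-C, 3 were called higher and 1 lower at E18 as labelled (median 1.01), while Adamts3 stood at -1.33 ± 0.61. Beside this list and the hypoxia and heat-shock lists below, 20.5% of all tested genes were higher and 21.8% lower. Vegfc rose (1.77 ± 0.27, edgeR, adjusted p = 0.000679), as did Flt4, which encodes its receptor VEGFR3 (1.01 ± 0.19, adjusted p = 0.00167), and Ccbe1, the cofactor of ADAMTS3 (1.65 ± 0.44, adjusted p = 0.0119). Kdr, which encodes VEGFR2, fell (-0.97 ± 0.31, adjusted p = 0.0251), a call that did not hold in 5 of 21 alternatives, among them the fit without labelled E18 WT library 3 (-0.61, adjusted p = 0.11). Of the 8 endothelial markers, 3 were higher, among them the lymphatic marker Lyve1 (1.60 ± 0.19), and 1 was lower, which was Kdr. P4ha1 and P4ha2 are known targets of the hypoxia response. Of 19 other hypoxia-responsive genes, 6 were higher and 4 lower (median 0.17), with Ndrg1 raised (1.71 ± 0.39) and Ldha lowered (-0.94 ± 0.25), while Aldoa (-0.10 ± 0.30) and Slc2a1 (0.17 ± 0.33) did not pass and P4ha1 stood at -0.37 ± 0.24. Serpinh1 is a known heat-shock gene. Of 12 other heat-shock genes 5 were higher and 3 lower (median 0.37), with Hspb1 raised (2.50 ± 0.33) and Hsp90ab1 lowered (-0.67 ± 0.21), a call that did not hold in 4 of 21 alternatives. Hsp90aa1 stood at 0.29 ± 0.24 and did not pass.

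At E12 no gene of these 8 lists was called other than Bgn, which was lower. Between stages within DKO, 8 of the 25 chaperones and modifiers were lower and 2 higher, 8 of the 17 export genes lower and 1 higher, and 8 of the 11 fibrillar procollagens lower, beside 23.2% of all tested genes higher and 22.8% lower. The same comparison called 5 BMP1 substrates higher and 1 lower, 3 of the 5 VEGF-C genes higher, 7 hypoxia-responsive genes higher and 2 lower, and 6 heat-shock genes higher and 4 lower.

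Across the 12 libraries the 9 genes fell into groups that varied together. Pearson's r of log2 CPM was 0.91 between Adamts2 and Bmp1, 0.90 between Adamts2 and Adamts14, and 0.87 between Adamts14 and Bmp1. It was 0.84 between Pcolce and P4ha3 and 0.78 between P4ha1 and P4ha2, and Adamts14 ran opposite to P4ha3 (-0.81) and Adamts3 (-0.66). These values describe 12 libraries, of which 3 are E18 DKO. Those 3 differed by edgeR from labelled E18 WT in 42.3% of tested genes and from E12 DKO in 46%. E12 WT library 1 was the highest E12 library for Adamts14, Adamts2 and Bmp1 (14.9, 113 and 106 CPM), and so adds to their correlations. All values of a library share its scaling. Among genes with a mean of at least 5 CPM, those closest to Adamts14 were Map4 (r = 0.985), Esyt2 (0.983) and Ces2g (0.982), and those closest to Adamts2 were Cd44 (0.969), Casp12 (0.968) and Axl (0.965). For Bmp1 they were Ppp3ca (0.960), Ramp1 (0.956) and Tnfrsf23 (0.954), and for Adamts3, Aak1 (0.911), Washc2 (0.907) and Ddx42 (0.896). Pcolce was closest to Selenom (0.942), Mfap4 (0.938) and Clip3 (0.934), and P4ha3 to Pidd1 (0.977), Mettl1 (0.976) and Wdr90 (0.963). Serpinh1 was closest to Tspan6 (0.942), Chst2 (0.938) and Apip (0.932). The closest genes were less close for P4ha1, namely Ebf4 (0.876), Jmjd6 (0.860) and Tmem45a (0.836), than for P4ha2, namely Hspa12b (0.915), Arhgap29 (0.912) and Gas1 (0.910).

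**Figure D5:**
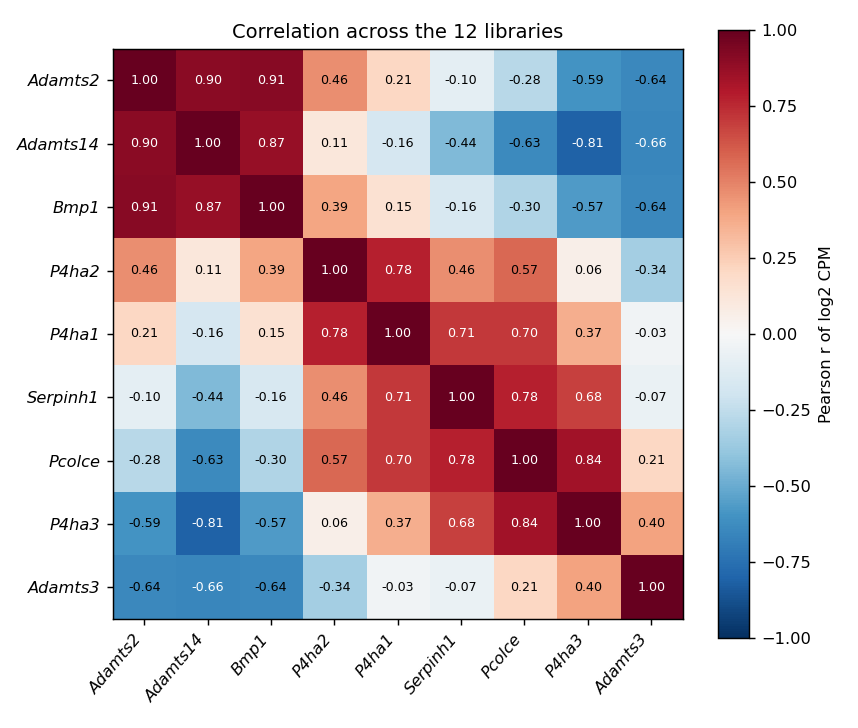
Pearson's r of log2 CPM over the 12 libraries between each pair of the 9 tested genes (both axes, gene; colour and printed value, r from -1 to 1). Adamts2, Adamts14 and Bmp1 form one block (0.87 to 0.91) and run opposite to Adamts3 (-0.64 to -0.66).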

How the data were processed

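Stranded poly(A) RNA-seq libraries were made from ground frozen fetal membranes, per the labels' protocols. The submitters' processing notes name Trimmomatic 0.36, STAR 2.4.2a, featureCounts from Subread 1.5.0 and GRCm38, and the deposited gene counts were made with strand option 2 over exons of Ensembl release 86, per the file headers. Each of 11 library files was identical to 1 column of the series table. E12 DKO library 1 was read from the series table, and the other libraries from their own files. Of 48795 gene IDs, 48349 had a symbol.

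Counts as deposited by the authors were tested with edgeR 4.0.16 (quasi-likelihood, TMM scaling, filterByExpr, 1 fit of 12 libraries in 4 groups, 8 degrees of freedom left, a common BCV, the biological coefficient of variation, of 0.373), with Benjamini-Hochberg adjustment over 18153 genes and a threshold of 0.05. SE is the size of the log2 fold change over the root of its F statistic. DESeq2 1.42.0 and limma 3.58.1 (voom) were alternatives, beside other scaling, filters, a replicate block and left-out libraries. The script was tested on simulated counts. Levels per kilobase use the exon length in the files. Shares and ratios were compared with two-sided exact permutation tests. Promoter windows came from RefSeq, for 9 of the 10 genes. The 10 genes, the other lists and the libraries that stand apart were chosen with earlier results of these data known, and the alternatives for the pathway lists were added after seeing the data. Named were all 10 genes, the 4 most abundant genes of each pathway list, Bgn, Dcn and the 3 genes most correlated with each gene. Up to 3 markers of a cell type were named too. Stromal fibroblast markers were an exception, named by their calls after their values were seen.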

Additional observations from a re-analysis of the deposited data

Results flagged for a closer look

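For 3 of the 9 tested genes the genotype effect differed between the labelled stages by the interaction term of the edgeR fit. Adamts14 differed by 3.70 on the log2 scale (adjusted p = 0.00557), with DKO above labelled E18 WT in all 9 pairs of E18 libraries and overlapping groups at E12. Adamts3 differed by -2.68 (adjusted p = 0.0249) and Bmp1 by 0.86 (adjusted p = 0.0383). Of all tested genes, 41.9% differed in the same way. These differences rest on the libraries labelled E18 WT, whose beta-globin transcripts were 74.8 to 87.8% embryonic, and on E12 WT library 1, at 14.8%. The part of stage in them was not tested.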

How the results depend on the processing

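Adamts14 at E18 as labelled (2.62 to 3.18 on the log2 scale) and Pcolce at E18 (-2.14 to -1.23) kept their direction and call under all 21 alternatives. The 0 calls between the WT groups and between E12 DKO and labelled E18 WT held under all 21 as well. Among the 9 tested genes, leaving out 1 library gave 2 to 5 calls at E18 and 1 to 5 for the difference of the genotype effects. Over all genes, those fits gave 5833 to 9452 calls at E18 and 6198 to 8528 for the difference. Without E12 WT library 1 and labelled E18 WT library 3 together there were 3 calls at E12, 5 at E18 and 5 for the difference, beside 3753, 9159 and 8881 over all genes. Library size alone gave 6 at E18, beside 8397 over all genes (7678 in the main fit). A fit of only the E12 and E18 DKO libraries gave 7 between stages, beside 10177 over all genes (8349 in the main fit).

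Other values changed sign. Without those 2 libraries together, Adamts14 stood at 0.55 at E12, P4ha2 at 0.027 and Calr at 0.0050 at E18, and the differences of Pcolce at 0.090 and Serpinh1 at 0.63. With library size alone, P4ha3 was at 0.046 at E12, the differences of P4ha1 and P4ha2 at -0.60 and -0.35, P4ha1 between DKO stages at -0.20, and Slc2a1 and Hsp90aa1 at E18 at -0.18 and -0.067. That scaling moved the median of all genes by 0.30 at E12, -0.66 for the difference and -0.35 between DKO stages, and the share of E12 calls that were higher from 26.6 to 74.5%. With raw counts in place of counts per kb, the P4ha1 share between DKO stages differed by -0.574 percentage points and P4ha3 per 1000 procollagen I at E12 by -0.0361.

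Over the fits that left out 1 library, the E12 log2 difference ran from -1.14 to 0.55 for Adamts14 and from -0.64 to 0.43 for P4ha3. At E18 it ran from -0.78 to 0.026 for P4ha2, -0.25 to 0.051 for Calr, -0.32 to 0.060 for Aldoa and -0.34 to 0.42 for Slc2a1. The difference of effects ran from -0.37 to 0.32 for Serpinh1 and -0.15 to 0.35 for P4ha1, and Serpinh1 between DKO stages from -0.13 to 0.061. In percentage points, the Adamts14 share differed at E12 by -2.65 to 2.93, the P4ha3 share at E12 by -0.327 to 9.17 and the P4ha2 share at E18 by -1.33 to 6.01. Per 1000 procollagen I, the E12 difference was -4.41 to 1.02 for Adamts2, -1.24 to 0.310 for Adamts14, -8.99 to 2.56 for Bmp1 and -0.813 to 1.26 for P4ha3. The cause was not tested.

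With the replicate block, the same number of the 9 genes was called at E12 (0), at E18 (3) and for the difference (3), and P4ha3 passed between DKO stages (-1.21, adjusted p = 0.0404), for 5 calls there. Of all genes, 5 in place of 64 were called at E12 and 8201 in place of 8349 between DKO stages. Same-numbered libraries of the genotypes correlated at -0.176 to 0.030 in their deviations. The labels name no pairing, and the labelled E18 WT count columns carry other numbers than the sample titles. These correlations and the replicate block therefore cannot decide whether libraries shared a litter or batch. DESeq2's Wald test called 2073 genes at E12 against 64. At the depth of these libraries, Pcolce2 was too scarce to test, and Adamts3 rested on 6 to 44 counts per E18 library. With 3 libraries a group, no exact permutation test could go below 0.1.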
